A study of Homo sapiens and Mus musculus with 12 samples.

Results

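The 4 core genes of Polycomb repressive complex 2 (PRC2) were followed in NK cells whose EHMT2 had been deleted or inhibited: the methyltransferases Ezh2 and Ezh1 and the scaffold subunits Eed and Suz12. Members were the rows that carry these symbols, 4 of 22021 genes in the mouse count table and 4 of 18304 in the human table. All 4 passed the filter on low counts in each species, in which 13189 mouse and 12727 human genes were tested. NK cells from the spleens of WT (Ehmt2 flox/flox) and KO (Ehmt2 flox/flox with Ncr1-iCre) mice were profiled by RNA-seq of polyadenylated RNA (3 libraries each). The mice were all C57BL/6J, matched for sex and age and 8 to 12 weeks old. Both groups carry the floxed allele, and the recombinase of KO mice is driven by Ncr1, which encodes the NK cell receptor NKp46, so that other cells of the spleen keep Ehmt2. NK92MI cells, an established human NK cell line that grows without added IL-2, were treated with BIX-01294, an inhibitor of the EHMT2 enzyme, or with its solvent DMSO (3 libraries each). The study's experiments on NK92MI cells used 0.25 μM for 5 days, and no other dose is given for the RNA-seq. No source says whether libraries of one group came from separate cultures or animals beyond their replicate numbers, so the tests measure the spread between these libraries.

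The titles of the KO samples and the study name Ehmt2 as the deleted gene, whereas their genotype label reads Ezh2-KO, and the libraries were grouped by title. Ehmt2 was counted at 171, 143 and 137 CPM (TMM-normalized counts scaled to a library of 1000000) in KO replicates 1 to 3 and at 275, 284 and 286 CPM in WT replicates 1 to 3. It fell to 53.3% of its WT level, −0.91 on the log2 scale (95% interval −1.14 to −0.67, adjusted p = 0.0162 by edgeR's quasi-likelihood test with Benjamini-Hochberg adjustment, as for every adjusted p here). The gene named in the label, Ezh2, stood at 85.5% of its WT level in the same libraries and did not pass the test. Within each library, the level of Ehmt2 per kilobase of exon divided by that of Ezh2 was 5.93, 4.39 and 4.34 in KO replicates and 8.03, 7.74 and 7.59 in WT replicates. The groups of this ratio did not overlap, with a difference of −0.69 on the log2 scale (p = 0.1 in a two-sided exact permutation test, which with 3 libraries a group gives no smaller value). Counts summed over a gene cannot check the deletion of either gene exon by exon. By Western blot the study reports that Ehmt2 was completely deleted in splenic NK cells of its KO mice, with H3K9me2 significantly reduced. Without KO replicate 2, KO replicate 3 or WT replicate 3, the adjusted p of Ehmt2 was 0.0986, 0.121 and 0.0587.

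PRC2 places methyl groups on lysine 27 of histone H3 (H3K27me3), a mark of silent developmental genes. EZH2 and its paralog EZH1 are alternative catalytic subunits, EZH2 being typical of dividing cells and EZH1 of resting ones, while EED reads the mark and SUZ12 holds the complex together. EHMT2, also called G9a, acts with EHMT1 to place H3K9me2, another repressive mark.

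The mouse genes lie on GRCm38 at chr6:47530139-47595341 (Ezh2, minus strand), chr11:101191115-101226463 (Ezh1, minus), chr7:89954654-89980983 (Eed, minus) and chr11:79993106-80034123 (Suz12, plus). The human genes lie on GRCh38 at chr7:148807257-148884321 (EZH2, minus), chr17:42700275-42745049 (EZH1, minus), chr11:86201212-86278813 (EED, plus) and chr17:31937007-32001038 (SUZ12, plus). Exons of Ezh2, Eed and Suz12 share 174, 261 and 178 bases with the antisense genes Gm26625, E230029C05Rik and Gm26563, and exons of EED share 221 with the antisense gene ENSG00000288809 and 66 with MIR6755. Exons of human EHMT2, which is compared with the members below, share 592 with the antisense gene EHMT2-AS1. The strand setting of the counting is not given in the sources used here, so reads over these stretches cannot be assigned to one of the overlapping genes.

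SUZ12 has an expressed partial copy, SUZ12P1. Of 4446 windows of 50 bases in the longest SUZ12 transcript, 430 (9.67%) occur letter for letter in another annotated transcript, against 11 of 4453 (0.247%) for EZH2 and none for EZH1, EED or the 4 mouse genes. The longest coding stretch of SUZ12 that SUZ12P1 shares is shown because reads within it cannot be assigned to one of both genes. It covers bases 302 to 479 of a coding sequence of 2217 bases, 178 bases in all, spread over exons between 31940313 and 31966170 on chromosome 17:
SUZ12: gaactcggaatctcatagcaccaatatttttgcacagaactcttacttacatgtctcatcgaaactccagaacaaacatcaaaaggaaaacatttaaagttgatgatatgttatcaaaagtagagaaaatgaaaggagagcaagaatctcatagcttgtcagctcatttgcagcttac
SUZ12P1 was counted at 477 to 585 reads a library, 5.42% to 6.34% of the reads of SUZ12 in the same library. Its log2 fold change on BIX-01294 was 0.02 (adjusted p = 0.868 by edgeR), so the counts of SUZ12 and of its copy were both near their DMSO level.

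E2F factors drive many genes of DNA replication, and EZH2 is a known target of theirs. The 4 words of the E2F consensus (TTTCCCGC, TTTGGCGC, TTTCGCGC and TTTGCCGC, each on both strands) were searched from 250 bases before to 50 after each RefSeq start site on GRCh38.p14. A word was present in 1 of the EZH2 promoters and in those of EZH1 and SUZ12, but not in the other EZH2 promoter or in that of EED, and in 3.31% of all 35116 promoters. Mouse promoters were not searched, so this says nothing of mouse Ezh2. The 60 bases around each word are shown, with the word in capitals and the gene's strand read 5′ to 3′, since proliferation genes and EZH2 are set side by side below. They lie at chr7:148884272-148884331, chr17:42745122-42745181 and chr17:31936792-31936851, in this order:
EZH2: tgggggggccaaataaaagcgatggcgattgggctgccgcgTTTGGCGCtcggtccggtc
EZH1: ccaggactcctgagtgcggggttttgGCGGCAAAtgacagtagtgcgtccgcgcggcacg
SUZ12: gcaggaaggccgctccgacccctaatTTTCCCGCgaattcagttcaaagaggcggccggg
The word of EZH1 is TTTGCCGC on the other strand. A match describes these letters and is not a binding site measured in NK cells.

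The mouse libraries held 25891680 (WT replicate 2) to 37438868 counts and the human ones 16579469 to 17165446, and the 4 members took 6738 to 9923 counts of a mouse library and 15554 to 16791 of a human library. At this depth counting error is small beside the spread between replicates, whose biological coefficient of variation was 18.2% in mouse and 7.56% in human. WT replicate 2 stood apart in depth and in NK cell markers, whose summed level was 9587 CPM there against 5694 and 5967 CPM in the other WT libraries. The summed level of the 12 NK cell markers ran from 10779 to 12554 CPM in KO libraries, that of 10 B cell markers from 103 to 512 in KO and 561 to 1550 in WT, that of 10 macrophage and monocyte markers from 1322 to 2375 and 2424 to 5813, and that of 8 erythroid markers from 101 to 130 and 216 to 350. Groups overlapped for 10 neutrophil markers, at 42.3 to 198 CPM in KO and 187 to 1414 CPM in WT libraries. They also overlapped for 6 plasma cell markers, at 98.6 to 174 CPM in KO and 153 to 686 CPM in WT libraries. The T cell markers summed to 156 to 275 CPM in KO and 215 to 304 CPM in WT libraries. Of 9 tested, 6 had a log2 fold change below 0 and 3 above, with a median of −0.70. At an adjusted p under 0.05 by edgeR, 6 of 12 NK cell and 1 of 9 T cell markers rose in KO libraries, where 4.44% of all genes rose. By the same limit 1 of 10 B cell, 6 of 10 macrophage and monocyte, 3 of 9 neutrophil, 7 of 8 erythroid and 0 of 6 plasma cell markers fell, where 7.43% of all genes fell. The edgeR calls in mouse, these included, depend on which libraries are kept. With all libraries 1565 genes were called. The number was 0 without KO replicate 2 or KO replicate 3, 14 without WT replicate 3 and 99 without WT replicate 1. It was 2032 without KO replicate 1 and 3530 without WT replicate 2. DESeq2 was not rerun with a library left out. None of these markers was at 0 in every library. In bulk samples, fewer cells of a type and less RNA per cell cannot be told apart, and the part of these other cells in the results on Ezh2 was not tested. NK92MI libraries held all 12 NK cell markers in their table, at a summed 5207 to 5609 CPM under DMSO, 6 of 10 B cell markers at 17.5 to 20.2 CPM and 3 of 10 macrophage and monocyte markers at 2.34 to 3.49 CPM.

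The first comparison asks whether loss of Ehmt2 went with a change in PRC2 transcripts. No core member passed the test in KO NK cells. The median log2 fold change of the 4 was 0.06, from −0.23 (Ezh2) to 0.18 (Eed), beside a median of 0.01 over all 13189 genes tested. Of these genes, 4.44% rose and 7.43% fell at an adjusted p under 0.05 by edgeR, and 22.2% of 13955 passed by DESeq2. At stricter limits, an adjusted p under 0.01 and an absolute log2 fold change over 0.5, 0.00% passed by edgeR and 10.7% by DESeq2. By DESeq2, too, 0 of the 4 core members passed either limit. At an unadjusted p under 0.05 in edgeR there was 1 of the 4, Ezh2, beside 35.8% of all genes.

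Ezh2 was counted at 35.0, 39.5 and 38.4 CPM in KO replicates 1 to 3 and at 41.6, 44.7 and 45.8 CPM in WT replicates 1 to 3. Each KO library was below each WT library, as for 38.5% of all genes whose groups did not overlap in one direction or the other. It stood at −0.23 on the log2 scale (SE 0.09, 95% interval −0.43 to −0.02, unadjusted p = 0.0360, adjusted p = 0.116 by edgeR). By DESeq2 the adjusted p was 0.125.

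Ezh1 was counted at 93.0, 103 and 111 CPM in KO replicates and 88.5, 97.7 and 89.6 CPM in WT replicates. The groups overlapped, since KO replicate 1 lay below WT replicate 2, and the log2 fold change was 0.16 (SE 0.09, 95% interval −0.06 to 0.37, adjusted p = 0.252 by edgeR). Ezh1 and Ezh2 thus had point estimates on opposite sides of 0, of which neither passed the adjusted threshold.

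Eed was counted at 49.0, 51.6 and 50.1 CPM in KO replicates and 39.9, 43.9 and 49.5 CPM in WT replicates. The KO libraries lay within a narrow range and WT replicate 3 reached into it. The log2 fold change was 0.18 (SE 0.10, 95% interval −0.05 to 0.41, adjusted p = 0.232 by edgeR).

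Suz12 was counted at 59.2, 67.4 and 72.5 CPM in KO replicates and 63.9, 75.0 and 64.1 CPM in WT replicates. Its groups overlapped widely, at −0.03 on the log2 scale (SE 0.11, 95% interval −0.28 to 0.22, adjusted p = 0.873 by edgeR). None of the 4 intervals reached −0.67, the end nearest to 0 of that of Ehmt2, and none shows that a gene was unchanged.

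**Figure D1:**
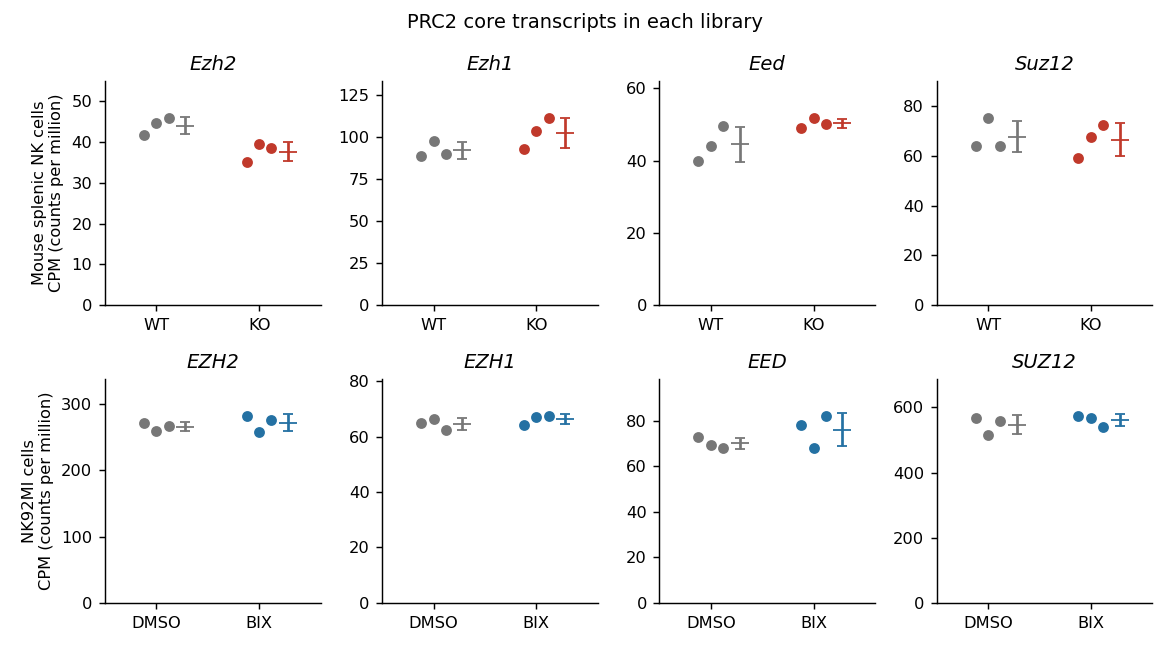
Level of each PRC2 core gene in CPM (vertical axes, from 0) in each library, with mouse WT and KO NK cells in the upper row and NK92MI cells on DMSO or BIX in the lower row; points are single libraries and the bars beside them the mean ± SD (n = 3). Ezh2 is the gene whose groups do not overlap, with KO libraries at 35.0 to 39.5 and WT libraries at 41.6 to 45.8 CPM.

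When libraries were scaled to the summed NK cell markers, the median of all genes moved to −0.80, 65.2% of all genes fell at an adjusted p under 0.05, and 2.89% had a fold change above 0. The 4 members were lower and passed the test under this scaling, as most genes were: Ezh2 −1.04 (adjusted p = 0.00616 by edgeR), Suz12 −0.83 (0.0140), Ezh1 −0.65 (0.0341) and Eed −0.64 (0.0491). Relative to the median gene, Ezh2 was at −0.24 under TMM, DESeq2's size factors, library totals and NK marker scaling alike, Ezh1 at 0.14 to 0.15 and Eed at 0.16. A ratio of both genes within a library does not depend on the scaling.

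The balance of the 2 methyltransferases separated the groups without overlap, as 38.5% of single genes did, Ezh2 among them. How often ratios of other gene pairs separate the groups was not computed, for this or the other ratios given here. The level of Ezh2 per kilobase divided by that of Ezh1 was 0.419, 0.426 and 0.385 in KO replicates 1 to 3 and 0.524, 0.509 and 0.569 in WT replicates 1 to 3. Every KO library was below every WT library, and the difference of the mean log2 ratios was −0.38 (SD 0.08 in each group, n = 3, p = 0.1 by the exact permutation test, its lower limit). It ran from −0.41 to −0.33 with each library left out in turn. With 3 libraries a group this test cannot reach 0.05, and 5 such ratios were computed in mouse, so the ratio is described and not called.

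Against Suz12, the subunit that moved least, Ezh1 per kilobase stood at 1.04, 1.02 and 1.02 in KO replicates and 0.920, 0.867 and 0.930 in WT replicates, again without overlap (log2 difference 0.18, exact permutation test, p = 0.1). Ezh2 to Suz12 was 0.438, 0.434 and 0.393 in KO and 0.482, 0.441 and 0.529 in WT replicates (log2 difference −0.20, exact permutation test, p = 0.1). Eed to Suz12 was 1.07, 0.990 and 0.894 in KO and 0.806, 0.757 and 0.997 in WT replicates, with overlapping groups (log2 difference 0.21, exact permutation test, p = 0.3).

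Ezh1 was the methyltransferase of higher level in mouse NK cells of both genotypes. In WT NK cells the order of levels per kilobase of all annotated exons was Suz12 (13.7 CPM per kb), Ezh1 (12.4), Eed (11.6) and Ezh2 (6.59). The libraries of Suz12, Ezh1 and Eed overlapped or nearly touched, with single values from 10.4 to 15.2, whereas Ezh2 lay apart at 6.23 to 6.85. By the length of the longest transcript Ezh1 (21.9) and Eed (21.5) stood above Ezh2 (15.8) and Suz12 (15.5), so that the place of Ezh2 below Ezh1 held by both lengths and its place below Suz12 did not. Of 12817 tested genes with a length, 52.5% were lower per kilobase of exons than Ezh2 in WT NK cells and 68.4% lower than Ezh1.

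Among the genes with the pattern most like that of Ezh2 over the 6 mouse libraries, by Pearson's r of log2 CPM among 9131 genes with a mean of at least 10 CPM, were Thbs1 (0.986), Vwf (0.984), Samd14 (0.984) and Asap1 (0.982). Vwf, von Willebrand factor, and Thbs1, thrombospondin 1, are known from platelets. Those most like Ezh1 were Ppp2r5e (0.998), Mllt4 (0.995) and Zfp36l2 (0.994), like Eed Pydc4 (0.992), Cpsf6 (0.979) and Adar (0.977), and like Suz12 Swsap1 (0.980), Tfdp2 (0.976) and Calcoco1 (0.976). These values describe 6 libraries that share their groups and carry no test.

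Genes of proliferation, among which Ezh2 is usually counted, were lower in KO NK cells. Of 34 measured, 13 fell and 0 rose, where 7.43% of all genes fell, with a median log2 fold change of −0.42 beside 0.01 over all genes. In this list 0 were called without KO replicate 2, KO replicate 3 or WT replicate 3 and 1 fell without WT replicate 1, while 11 fell and 1 rose without KO replicate 1 and 17 fell without WT replicate 2. The 5 of smallest adjusted p were E2f8, an E2F repressor (−0.80, adjusted p = 0.0239 by edgeR), the cyclin Ccna2 (−0.80, 0.0241), Uhrf1, which maintains DNA methylation (−0.56, 0.0269), the mitotic kinase Aurkb (−0.76, 0.0279) and Rrm2, a subunit of ribonucleotide reductase (−0.63, 0.0279). Mki67 stood at 75.4, 142 and 94.3 CPM in KO replicates against 174, 172 and 176 CPM in WT replicates (−0.74, adjusted p = 0.0551), and Top2a fell by 0.66 on the log2 scale (adjusted p = 0.0327). The value of Ezh2, −0.23, lay nearer to 0 than the median of that list. Erythroid genes, which belong to another dividing lineage of the spleen, were lower as well, with 7 of 8 past the test (0 without KO replicate 2, KO replicate 3 or WT replicate 3, and 2 without WT replicate 1) and a median of −2.28. Whether the value of Ezh2 belongs to either was not tested.

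Of 9 accessory PRC2 subunits with a row (11 listed), 0 passed by edgeR in KO NK cells and 1 had an unadjusted p under 0.05, with a median of 0.10. Of 28 PRC1 subunits, 1 rose and 0 fell, where 4.44% of all genes rose and 7.43% fell, and 6 had an unadjusted p under 0.05, where 35.8% of all genes did. The one that rose, Pcgf2, also called Mel18, a partner of the RING1 ubiquitin ligases, stood at 27.03, 34.9 and 29.3 CPM in KO and 19.2, 23.4 and 16.9 CPM in WT replicates (log2 fold change 0.62, adjusted p = 0.0453). Of 7 erasers of the Polycomb marks tested, 0 passed and 2 had an unadjusted p under 0.05. By DESeq2, 4 genes of these 3 lists passed, all higher, where 22.2% of all genes passed. The call of Pcgf2 was lost without KO replicate 2, KO replicate 3, WT replicate 1 or WT replicate 3.

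Most genes of a list that PRC2 silences in most tissues were too low to be tested in mouse NK cells. Hoxb4, which was tested, stood at 6.28 to 7.51 CPM per kb of exons in WT libraries, beside 6.23 to 6.85 for Ezh2. Of 71 developmental genes, 27 had no count in any mouse library, 16 could be tested, 1 rose and 2 fell, where 4.44% of all genes rose and 7.43% fell. Of the 16 tested, 13 had a log2 fold change below 0 and 3 above, with a median of −0.20. Hoxb4 rose, from 16.1, 19.3 and 19.1 CPM in WT to 27.6, 26.8 and 23.6 CPM in KO replicates (0.52, adjusted p = 0.0406 by edgeR), whereas Hoxc4 (−1.30, 0.0341) and Hoxa7 (−0.91, 0.0466) fell. None of the 3 calls was left without KO replicate 2, KO replicate 3, WT replicate 1 or WT replicate 3. Without KO replicate 1, 0 genes of the list rose and 2 fell, so the call of Hoxb4 was lost there as well. The summed level of all 71 was 55.5 to 61.0 CPM in KO and 55.6 to 62.2 CPM in WT libraries, a sum of which Hoxb4 alone made up 23.6 to 27.6 CPM in KO libraries.

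The second comparison asks the same of NK92MI cells on BIX-01294. No core member passed the test, by edgeR or by DESeq2, and none had an unadjusted p under 0.05. The median log2 fold change of the 4 was 0.04, from 0.03 to 0.12, beside −0.01 over 12727 genes. In this comparison 18.4% of genes rose and 18.4% fell at an adjusted p under 0.05 by edgeR, 11.7% passed the stricter limits by edgeR, 30.0% of 14400 passed at 0.05 and 10.1% at the stricter limits by DESeq2, and the groups of 47.9% did not overlap, whereas those of each core member did. EHMT2 itself was at 40.4, 39.3 and 35.8 CPM on BIX and at 57.1, 61.6 and 54.3 CPM on DMSO, −0.58 on the log2 scale (95% interval −0.76 to −0.41, adjusted p = 0.000101 by edgeR). EHMT1 was at −0.17 (adjusted p = 0.0664).

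EZH2 was counted at 282, 258 and 276 CPM in BIX replicates 1 to 3 and at 272, 259 and 267 CPM in the 3 DMSO libraries. The lowest and the highest value were both from BIX libraries, and the log2 fold change was 0.03 (SE 0.06, 95% interval −0.10 to 0.16, adjusted p = 0.719 by edgeR).

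EZH1 was at 64.4, 67.3 and 67.4 CPM on BIX and at 65.1, 66.4 and 62.3 CPM on DMSO (0.04, 95% interval −0.11 to 0.19, adjusted p = 0.690). SUZ12 was at 574, 569 and 541 CPM on BIX and at 567, 515 and 560 CPM on DMSO (0.04, 95% interval −0.10 to 0.17, adjusted p = 0.683). The intervals of EZH2, EZH1 and SUZ12 together reach from −0.11 to 0.19 on the log2 scale.

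EED was at 78.2, 67.9 and 82.0 CPM on BIX and at 72.8, 69.2 and 68.0 CPM on DMSO. BIX replicate 2 was the lowest of all 6 libraries while the other BIX libraries were above all DMSO libraries. The log2 fold change was 0.12 (SE 0.08, 95% interval −0.05 to 0.29, adjusted p = 0.263 by edgeR), and without BIX replicate 2 it was 0.20 (adjusted p = 0.0360), so that 1 library decides this call.

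**Figure D2:**
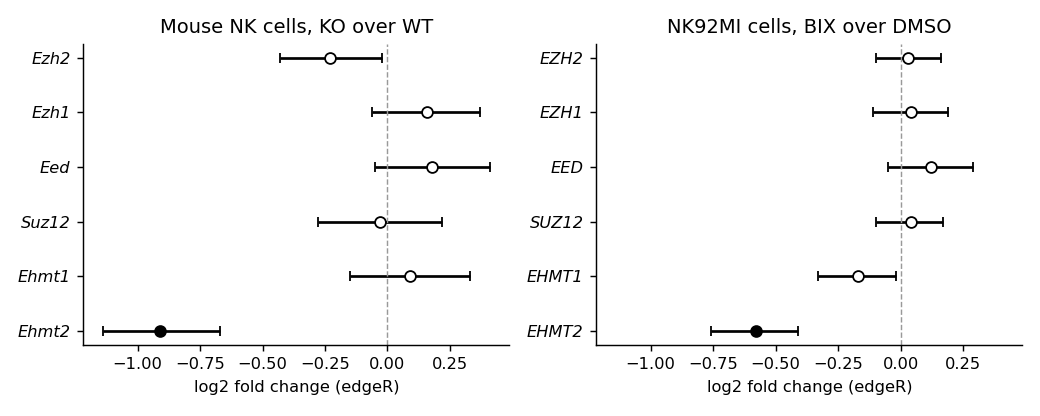
Log2 fold change (horizontal axis) of the PRC2 core genes and of both EHMT genes by edgeR, with 95% intervals as bars, for KO over WT mouse NK cells (left) and BIX over DMSO in NK92MI cells (right); filled points have an adjusted p under 0.05. Ehmt2 at −0.91 and EHMT2 at −0.58 are the filled points, and the interval of Ezh2, −0.43 to −0.02, is the one of the core genes that leaves out 0.

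The order of levels in NK92MI cells differed from that of the mouse cells. Per kilobase of exons, SUZ12 stood at 83.6 CPM on DMSO, EZH2 at 24.7, EED at 10.01 and EZH1 at 9.24, and the order was the same by the longest transcript (122, 59.1, 25.3 and 13.9). SUZ12 was above 97.0% of 12532 tested genes with a length, and EZH2 above 84.3%. EED and EZH1 were neighbours in this order by exons, with DMSO libraries at 9.72 to 10.4 and 8.91 to 9.50.

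EZH2 was the methyltransferase of higher level in every NK92MI library. Its level per kilobase divided by that of EZH1 was 2.84, 2.49 and 2.66 in BIX replicates and 2.71, 2.53 and 2.78 in DMSO libraries, a log2 difference of −0.01 (two-sided exact permutation test, p = 1). By the longest transcript the ratio was between 3.94 and 4.51. The mouse ratio by the same length was 0.522 to 0.771, so the libraries of the species lay on opposite sides of 1 by either length. This sets spleen cells of a mouse beside a human line, prepared and counted against different annotations, and species, source and growth cannot be told apart.

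Against SUZ12, EZH2 stood at 0.275 to 0.311, EED at 0.112 to 0.142 and EZH1 at 0.104 to 0.121 over all 6 NK92MI libraries, with overlapping groups in each case (exact permutation tests, p = 1, 0.6 and 1). The stretch shared with SUZ12P1 covers 8.03% of the SUZ12 coding sequence.

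**Figure D3:**
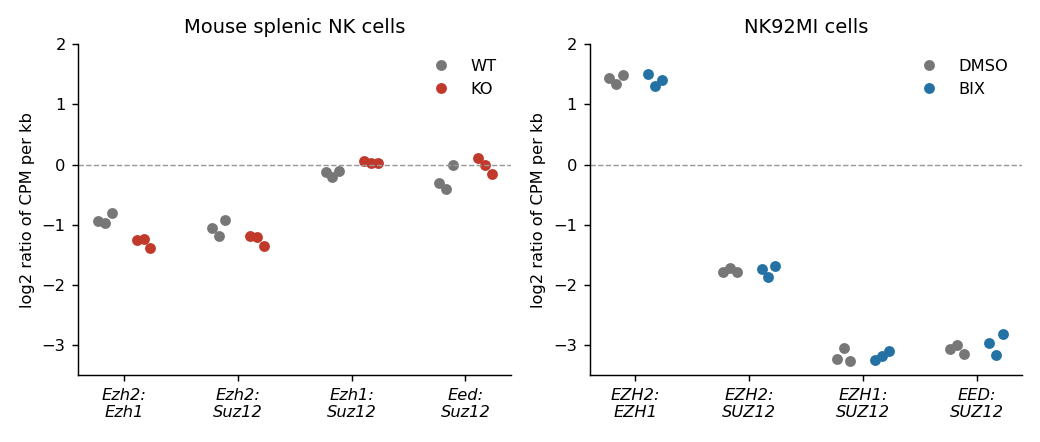
Log2 ratio of the levels per kilobase of exons (vertical axis) of pairs of PRC2 core genes within each library, for mouse NK cells (left, WT grey and KO red) and NK92MI cells (right, DMSO grey and BIX blue); each point is 1 library and the dashed line marks equal levels. Ezh2:Ezh1 lies below the line in mouse, with KO at −1.38 to −1.23 and WT at −0.97 to −0.81, and EZH2:EZH1 above it in NK92MI cells at 1.31 to 1.51.

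Over the 6 NK92MI libraries and 8555 genes, the patterns most like that of EZH2 were those of SNHG1 (r = 0.975), MAD2L1, a spindle checkpoint protein (0.967), HOXA10 (0.965), RAD9B (0.961) and HSP90B1 (0.955). For EZH1 they were EEIG1 (0.970), NIF3L1 (0.959) and MAU2 (0.959), for EED PPP2CA (0.994), STEEP1 (0.983) and GRINA (0.981), and for SUZ12 PXK (0.985), SRP54 (0.980) and OIP5-AS1 (0.969). The log2 fold changes of these genes ran from 0.01 (MAD2L1) to 0.41 (GRINA).

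Of 9 accessory subunits of PRC2 with a row, 3 rose and 2 fell on BIX, where 18.4% of all genes went each way. These are few genes, and the difference from the core was not tested. The PRC2 of one type carries a Polycomb-like protein. Of these, PHF1 rose from 27.1, 28.8 and 27.2 CPM on DMSO to 35.3, 34.5 and 40.2 CPM on BIX (0.40, adjusted p = 0.00307 by edgeR). MTF2 rose from 109, 110 and 115 to 128, 139 and 127 CPM (0.24, adjusted p = 0.0104). PHF19 fell from 194, 191 and 187 to 153, 153 and 142 CPM (−0.35, adjusted p = 0.000557).

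The PRC2 of the other type carries JARID2 and AEBP2. JARID2, which helps to recruit the complex, fell from 64.8, 67.5 and 68.2 to 51.1, 51.6 and 48.4 CPM (−0.41, adjusted p = 0.000501). AEBP2 was at 0.16 (adjusted p = 0.143). The histone chaperone RBBP4, shared with other complexes, rose from 287, 282 and 278 to 316, 316 and 319 CPM (0.17, adjusted p = 0.0330). In KO mouse NK cells the same genes had log2 fold changes of 0.48 (Phf1, adjusted p = 0.0522), 0.21 (Mtf2), −0.01 (Phf19), −0.20 (Jarid2) and 0.10 (Rbbp4), of which none passed.

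Of 27 PRC1 subunits, 9 rose and 3 fell on BIX, where 18.4% of all genes went each way, with a median of 0.10. BCOR, a subunit of the PRC1 with PCGF1, rose most in this list, from 286, 306 and 287 to 517, 535 and 501 CPM (0.82, adjusted p = 4.38e-07 by edgeR). RYBP rose from 68.6, 65.3 and 68.2 to 116, 115 and 110 CPM (0.76, adjusted p = 1.41e-06) and its paralog YAF2 by 0.70, and the CpG-island binder KDM2B rose too (0.26). PCGF3 (−0.41), the ubiquitin ligase RING1 (−0.40) and SCMH1 (−0.43) fell. The mouse genes Bcor (0.22), Rybp (0.10) and Yaf2 (−0.06) did not pass in KO NK cells.

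Of 7 erasers of the Polycomb marks tested, 1 rose and 2 fell, where 18.4% of all genes went each way. KDM6B, also called JMJD3, which removes H3K27me3, rose from 12.9, 10.1 and 12.5 to 27.5, 27.2 and 25.2 CPM (1.17, adjusted p = 3.94e-06 by edgeR). Each BIX library was above each DMSO library. USP16, which removes ubiquitin from H2AK119 (−0.51), and ASXL1, the cofactor of the H2AK119 deubiquitinase BAP1 (−0.36), fell, whereas the other H3K27 demethylase KDM6A stood at 0.01 (adjusted p = 0.960). Kdm6b in KO mouse NK cells stood at −0.26 (adjusted p = 0.203).

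Of 34 proliferation genes in NK92MI cells, 6 rose and 11 fell, where 18.4% of all genes went each way, with a median of −0.05. The share that rose was close to that of all genes. RRM2 rose by 0.69 on the log2 scale and CCNA2 fell by 0.49, and MKI67 was at 1275, 1544 and 1064 CPM on BIX against 1679, 1640 and 1622 CPM on DMSO (−0.35, adjusted p = 0.0140 by edgeR). EZH2 was at 0.03 beside them. Of 71 Polycomb-silenced genes, 25 had a row and 16 could be tested, and 1 rose, where 18.4% of all genes did: HOXA9, from 17.8, 17.3 and 17.3 to 27.5, 25.2 and 25.5 CPM (0.57, adjusted p = 0.000316). The 25 genes summed to 386 to 433 CPM on BIX and 377 to 407 CPM on DMSO, so not all of them were silent in NK92MI cells.

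**Figure D4:**
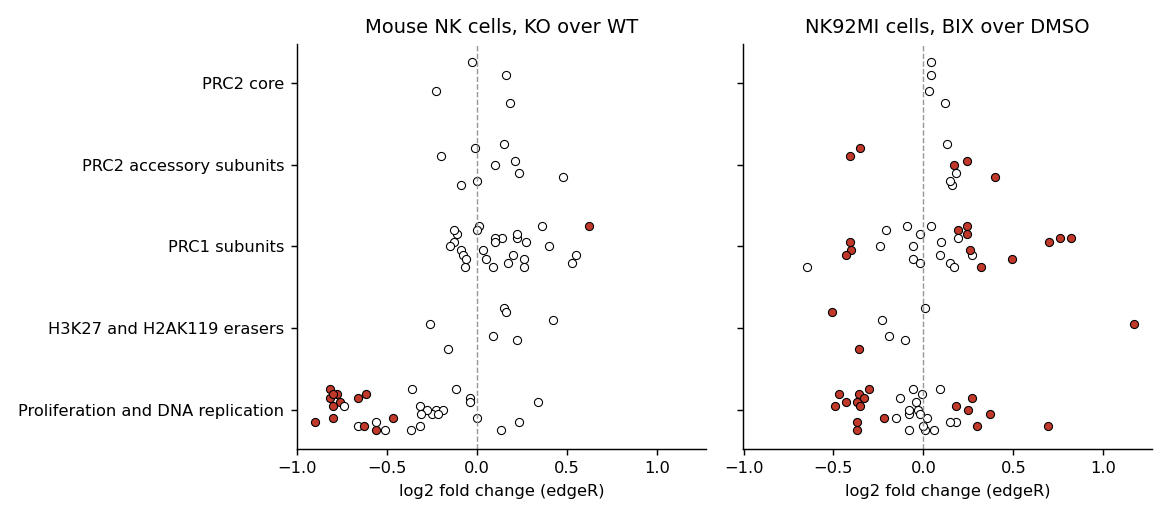
Log2 fold change by edgeR (horizontal axis) of each tested gene of 5 lists for KO over WT mouse NK cells (left) and BIX over DMSO in NK92MI cells (right); each point is 1 gene, filled where the adjusted p is under 0.05, and the vertical spread within a list has no meaning. The core has no filled point on either side, Pcgf2 at 0.62 is the filled point of the mouse Polycomb lists, and KDM6B at 1.17 is the rightmost point in NK92MI cells.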

How the data were processed

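RNA-seq of 3 WT and 3 KO NK cell samples and of 3 BIX-01294- and 3 DMSO-treated NK92MI samples was used. The authors trimmed reads with fastp 0.23.4, aligned them with STAR 2.7.11b, with up to 2 mismatches, and made the counts with HTSeq 2.0.3, on GRCm38 for mouse and GRCh38 for human. The deposited values are these raw counts, listed by symbol and not normalized. The annotation release is not given in the sources used here. Positions and lengths come from GENCODE vM21 and v44, promoters from RefSeq. No name ties the human control columns to a numbered DMSO sample, so they entered as a group.

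Each species was fitted whole with edgeR 4.0.16 (R 4.3.3): TMM, filterByExpr, quasi-likelihood test, and Benjamini-Hochberg adjustment over all genes tested, with a threshold of 0.05. DESeq2 1.42.0 and limma 3.58.1 (voom) were alternatives. Scripts were tested on simulated data. The members and gene lists were chosen with earlier results of these data known. Named genes are the members, both EHMT genes, Mki67 and Top2a, up to 5 genes per list and direction of smallest adjusted p among those that passed, their counterparts in the other species, and the genes most like each member in pattern. Of the genes this rule names, 2 are not reported here. Lists were described by counts and medians. The exact permutation tests of ratios are two-sided and compare log2 ratios over libraries. Library totals and the spread between replicates stand in the results.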

Additional observations from a re-analysis of the deposited data

How the results depend on the processing

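No core member passed in KO NK cells under DESeq2's size factors, library totals, other filters, DESeq2, limma-voom or the replicate block. None passed with a library left out either. Over all genes, however, 0 were called without KO replicate 2 or KO replicate 3, 14 without WT replicate 3 and 99 without WT replicate 1. Those fits could therefore hardly have called a core member. NK marker scaling called 4 core members, all lower, and turned Ezh1 (−0.65), Eed (−0.64) and Ehmt1 (−0.73), a consequence of its construction, which moves the median of all genes to −0.80. Ezh2 otherwise lay between −0.26 and −0.18, with adjusted p from 0.0796 (replicate block) to 0.291 (without WT replicate 3). The near-zero value of Suz12 ran from −0.10 to 0.05 with 1 library left out and was 0.04 without KO replicate 1 and 0.05 without WT replicate 2. Ehmt2 ran from −1.01 to −0.84, with values of −0.87, −0.84 and −0.90 and no call without KO replicate 2, KO replicate 3 and WT replicate 3. Of the 9 accessory, 28 PRC1 and 7 eraser genes tested in mouse, 1 was called, where 1565 of all 13189 genes were. Without a filter 2 were called (1763 of 16465 over all genes), by DESeq2 4 (3092 of 13955) and with the replicate block 5 (3222 of 13189). NK marker scaling gave 27, all lower, where 65.2% of all genes fell. At the stricter limits 0 passed by edgeR, where 0.00% of all genes did. By DESeq2 1 did (Pcgf2, a setting chosen after seeing the data), where 10.7% of all genes did. With a library left out 0 to 8 were called: 8 without WT replicate 2 (3530 over all genes), 3 without KO replicate 1 (2032) and 0 in the other 4 cases (0 to 99). Whether the replicate numbers shared by WT and KO samples pair them cannot be decided from 3 libraries a group. Deviations of same-numbered samples correlated at 0.28, 0.35 and −0.19. KO replicate 2 correlated best with its own number, KO replicate 1 equally with WT replicates 1 and 3, and KO replicate 3 best with WT replicate 2 (0.20). The replicate block raised the calls over all genes from 1565 to 3222. In NK92MI cells the core count was 0, or 1 without BIX replicate 2 (EED), so 0 to 1, and SUZ12 ran from −0.01 (without DMSO library 2) to 0.07. The 20 calls among the 9 accessory, 27 PRC1 and 7 eraser genes tested there (13 up, 7 down) stood beside 18.4% of all genes in each direction. At the stricter limits 5 were left (4 up, 1 down) by edgeR, where 11.7% of all genes passed. By DESeq2 5 were left too, where 10.1% of all genes passed. With a library left out 15 to 24 were called, where 3491 to 5021 of all genes were. No paired analysis was possible in NK92MI cells because the control columns carry no replicate number of a labelled sample. The cause of the other shifts was not tested.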

Other observations

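The level of SUZ12 in NK92MI cells was compared with its neighbours on chromosome 17, a set chosen after its level was seen. Per kilobase of exons on DMSO, SUZ12 stood at 83.6 CPM, above each annotated coding gene within 1 Mb that has a row, of which the next were EVI2B (41.5), PSMD11 (33.4), ZNF207 (31.5) and UTP6 (23.3). LRRC37B, 6 kb away, stood at 2.31 CPM per kb and NF1 at 5.53. In WT mouse NK cells Suz12 (13.7) stood below Zfp207 (35.7), Crlf3 (28.1), Evi2a (23.0), Adap2 (15.7) and Wsb1 (15.7). Of these, Crlf3 lies 12 kb from Suz12. On BIX, ZNF207 (−0.37, adjusted p = 0.000663 by edgeR), EVI2B (−0.51, 0.000286), MYO1D (−0.38, 0.00145) and C17orf75 (−0.20, 0.0418) fell and CDK5R1 rose (0.35, 0.0266), where 18.4% of all genes went each way. SUZ12 (0.04), UTP6 (0.08), NF1 (0.10) and the other tested genes within 1 Mb did not pass. Whether the neighbours differ from all genes was not tested.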
